A study of Mus musculus with 9 samples.

Results

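The genes described here encode the mitochondrial respiratory chain and the ATP synthase. They were taken by symbol: every gene of the deposited table whose symbol begins with Nduf, Uqcr or Atp5 or with Cox4 to Cox8, together with Sdha, Sdhb, Sdhc, Sdhd and Cycs. The rule found 93 of the 24060 genes in the table, and no measured value entered it. By role they were 7 core subunits, 29 accessory subunits and 8 assembly factors of complex I, 4 genes of complex II, 8 of complex III, cytochrome c, 20 genes of complex IV, and 5 and 11 genes of the F1 head and of the Fo and stalk parts of complex V. Of the 93, 87 had a level above 1 TPM (a gene's length-corrected share of the transcripts of a sample, scaled to a total common to all samples) in at least 1 sample and were tested with 12028 other genes.

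The respiratory chain sits in the inner membrane of the mitochondrion. Complexes I and II pass electrons from NADH and succinate to ubiquinone, complex III passes them on to cytochrome c, and complex IV passes them to oxygen. Complexes I, III and IV pump protons, and complex V, the ATP synthase, lets them flow back while it makes ATP. Resting T cells draw much of their ATP from this chain, and cells entering division enlarge their mitochondria and also turn to glycolysis. Nuclear genes encode most of the subunits, and the mitochondrial genome encodes the others, which are not analysed here.

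The samples were CD8 T cells of 3 transnuclear mouse lines, Rop7-I, Rop7-II and Rop7-III, each line made by nuclear transfer from a single CD8 T cell and so carrying the rearranged T-cell receptor (TCR) of that cell. All 3 receptors bind the Toxoplasma gondii peptide Rop7 on the class I molecule H-2Ld, and the design set the clones apart by their receptor, its affinity for that peptide and its reactivity to self. The lines were backcrossed to BALB/c, and the mice were homozygous for the transferred receptor genes. In every group unstimulated splenocytes spent a night in culture without antigen, in medium holding 10 ng per ml of IL-2, and cells positive for CD3, CD8 and the H-2Ld-Rop7 tetramer were sorted to a purity of 90 to 95%. Polyadenylated RNA of 3 biological replicates per clone, 9 samples in all, was sequenced without strand information. Neither the age of the mice nor whether replicates were single mice was stated in the sources used here, and each line stands for 1 clone, so that receptor and line cannot be told apart. P-values measure the spread between these samples only.

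Some properties of the samples bear on everything that follows. Markers of CD8 T cells summed to between 6204 and 7028 TPM in the 9 samples. Rop7-II replicate 1 held the highest level of 10 of 10 B-cell markers, 10 of 10 myeloid markers and 3 of 4 CD4 T-cell markers. Its B-cell markers summed to 810.6 TPM, against 60.11 to 358.1 TPM in the other 8 samples, and its myeloid markers to 656.2 TPM, against 29.0 to 236.4 TPM. None of these markers was at 0 in all samples. Erythroid markers, of which 1 of 6 was at 0 throughout, reached 2387 TPM in Rop7-I replicate 2 and summed to 26.23 to 469.1 TPM elsewhere. The 5 markers of dividing cells summed to 21.09 to 33.61 TPM in Rop7-III, 6.97 to 9.38 TPM in Rop7-I and 5.03 to 6.31 TPM in Rop7-II. In sorted bulk RNA, a change in the number of cells of a type and a change in their RNA content cannot be told apart. The part of these markers in the results was not tested.

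The respiratory chain genes differed little between the clones. All 93 genes together, tested or not, took 1.276% of the transcripts in Rop7-I, 1.262% in Rop7-II and 1.276% in Rop7-III. The mean log2(TPM + 1) over the 87 genes was 6.48 ± 0.013 in Rop7-I, 6.52 ± 0.050 in Rop7-II and 6.51 ± 0.032 in Rop7-III (SD, n = 3 each), and the samples of no pair of clones were apart. Fold changes below are differences of log2(TPM + 1), and a gene was called when its p-value from limma, adjusted by the Benjamini-Hochberg method over all 12115 genes of a pair, was under 0.01. Between Rop7-III and Rop7-II, 4 of 87 genes were called (4.6%), against 12.3% of all genes tested. Of these, 2 were higher in Rop7-III (all genes, 6.39%) and 2 lower (5.89%). Between Rop7-III and Rop7-I, 2 were called (2.3%), both higher in Rop7-III, against 4.85% of all genes in either direction, 2.58% higher and 2.28% lower. In Rop7-I against Rop7-II, 3 were called (3.45%), 2 of them higher and 1 lower, against 7.53% of all genes, 3.67% higher and 3.85% lower.

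Across the 3 clones at once, the F test of limma called 4 of the 87 genes (Ndufa3, Uqcrh, Sdha and Cox6b2), against 14.1% of all genes. Among 6856 other genes at like levels, 14.3%, 5.22% and 8.96% were called in the same order of pairs. The median level of these genes in log2(TPM + 1) was 5.665, lower than the 6.704 of the respiratory chain genes. At least a 2-fold difference was called for 0 of 87 genes between Rop7-III and Rop7-II (1.7% of all genes), for 1, Cox6b2, between Rop7-III and Rop7-I (1.06%) and for 0 between Rop7-I and Rop7-II (0.949%). At an adjusted p under 0.05 the 3 pairs gave 7, 4 and 9 genes and the F test 11, against 25.1%, 13.1%, 17.9% and 30% of all genes. At an unadjusted p under 0.05 the 3 pairs gave 18, 14 and 21 genes. The share of all genes at that unadjusted level was not counted. It cannot be below the 25.1%, 13.1% and 17.9% at the adjusted level, and unadjusted counts given further on have the same limit. The samples of the clones did not overlap for 24 of the 87 genes (27.6%) between Rop7-III and Rop7-II, against 40.7% of all genes. They did not overlap for 17 (19.5%; all genes, 38.2%) between Rop7-III and Rop7-I and for 20 (23%; all genes, 35%) between Rop7-I and Rop7-II.

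**Figure D1:**
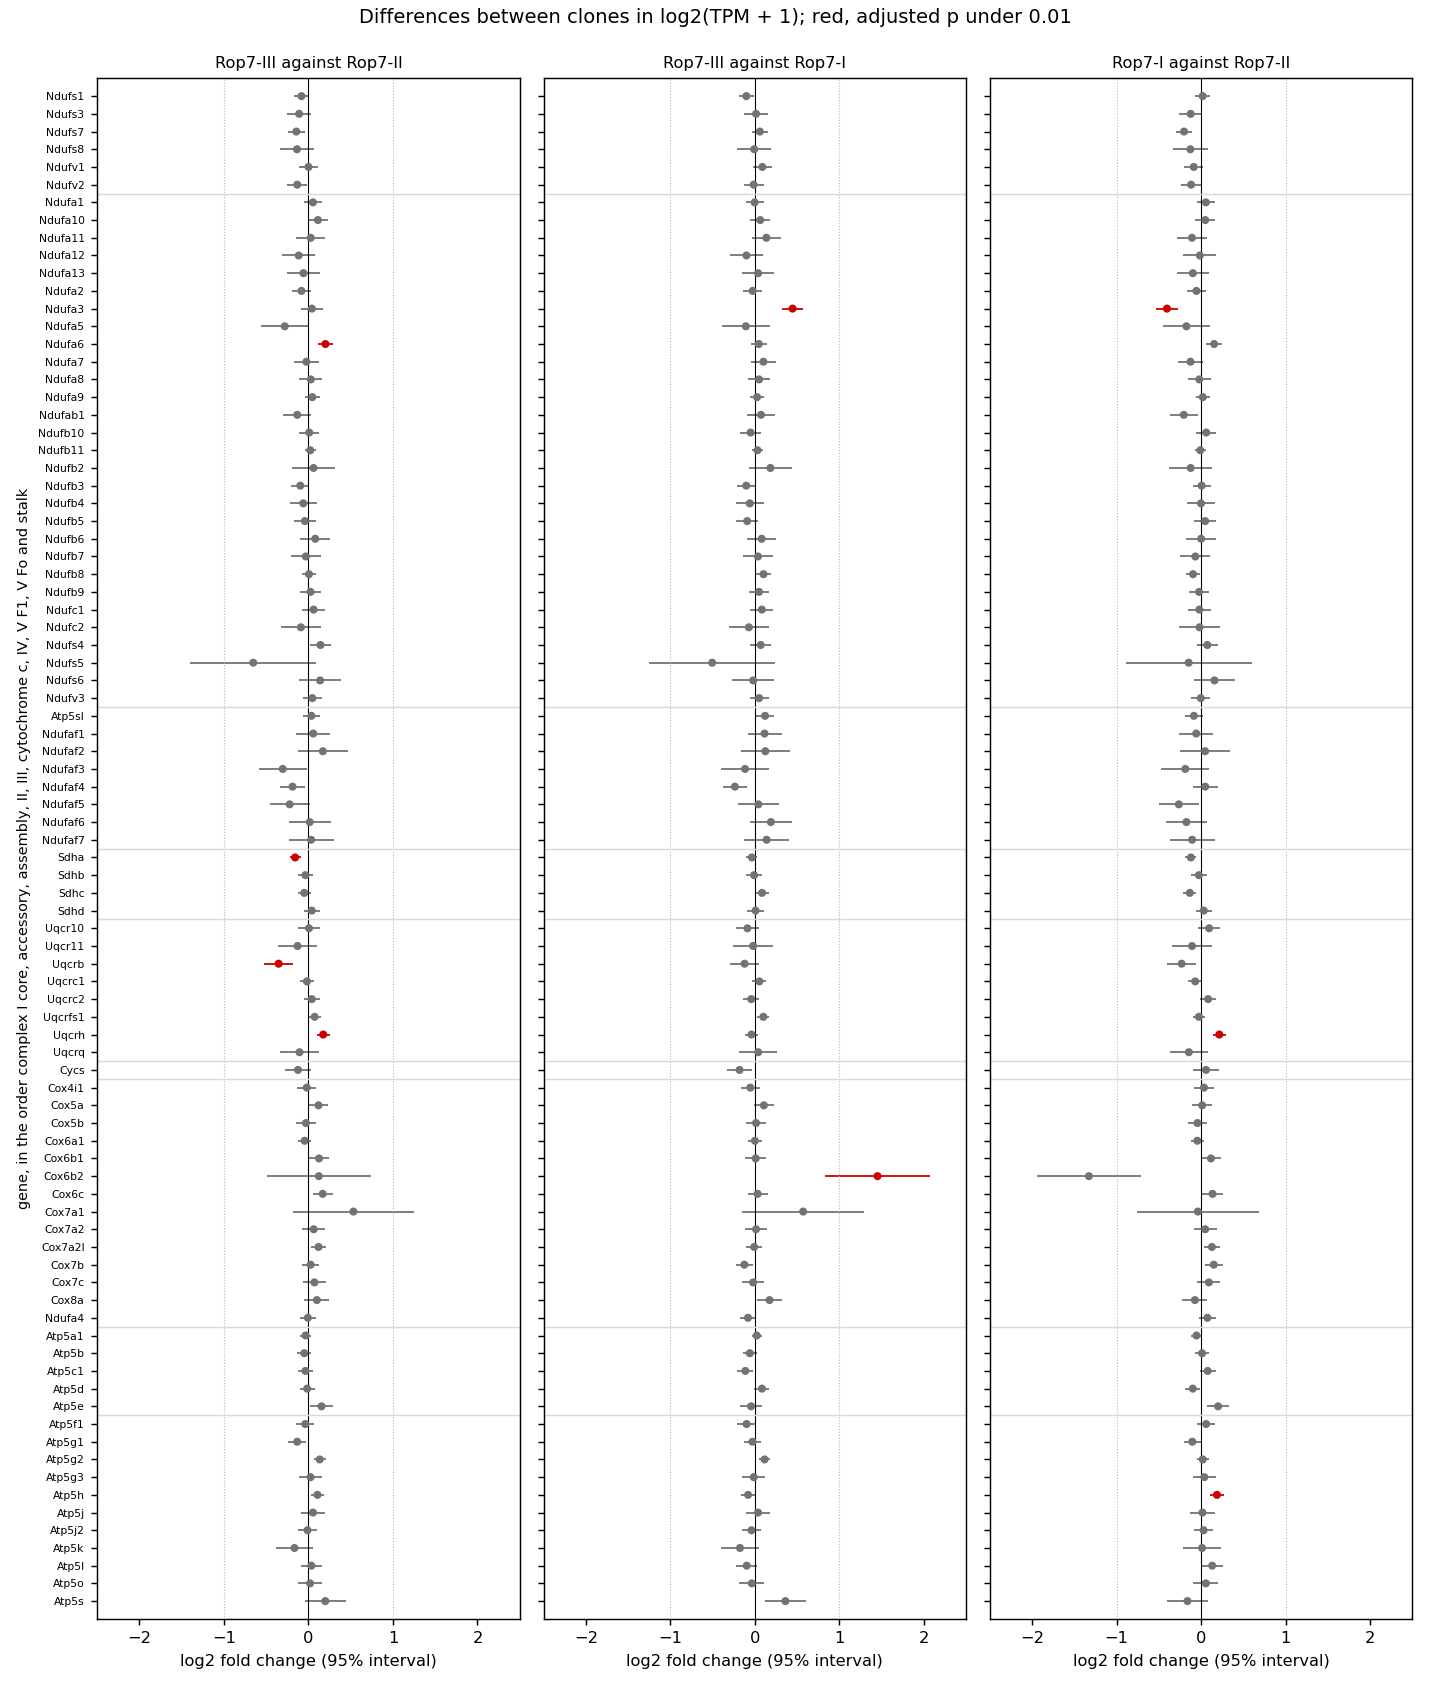
Log2 fold changes of 86 of the 87 tested respiratory chain genes in the 3 pairs of clones, with 95% intervals from limma, on the log2(TPM + 1) scale. Genes are ordered by complex, red marks an adjusted p under 0.01, and dotted lines mark a 2-fold difference. Most genes lie close to 0 with short intervals, and the wide intervals belong to Ndufs5, Cox6b2 and Cox7a1.

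The intervals say how large a difference the samples leave room for. The 95% interval of the log2 fold change lay within 0.3 of 0 for 69 of 87 genes (79.3%) between Rop7-III and Rop7-II, against 47.6% of all genes tested. In the second pair it did so for 69 genes (79.3%; all genes, 53.3%), Rop7-III against Rop7-I, and in Rop7-I against Rop7-II for 67 genes (77%; all genes, 50.1%). Within 0.5 lay 81, 82 and 82 genes (all genes, 70.2%, 73.8% and 73.3%). Shares within these limits were not counted for genes at like levels. The median level in log2(TPM + 1) was 6.704 for the respiratory chain genes and 4.779 for the other tested genes. The part of level in these shares was not tested. The median size of the log2 fold change was 0.062, 0.064 and 0.074 in the 3 pairs, against 0.13, 0.10 and 0.12 over all genes and 0.10, 0.080 and 0.093 over the genes at like levels. Replicates of a clone were about as far apart as for other genes: the median within-clone SD was 0.073 for the 87 genes, 0.065 for genes at like levels and 0.088 for all other genes.

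Levels between genes spanned a wide range, while the order within a complex was much the same in each clone. Cox7a2l, which aids the joining of complexes into supercomplexes, was the highest gene, with a mean of 1039 TPM over the 9 samples. Atp5b, the catalytic beta subunit of ATP synthase, stood at 629.5 TPM, and Cox4i1, a subunit of complex IV, stood at 479 to 517 TPM in 8 samples and 448 TPM in Rop7-III replicate 3. Cytochrome c (Cycs) stood at 24.55 TPM and the 8 complex I assembly factors at a median of 12.3 TPM, from 5.50 TPM for Ndufaf6 to 99.42 TPM for Atp5sl. The lowest of the core complex I subunits was Ndufv2, at 52.5 TPM.

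**Figure D2:**
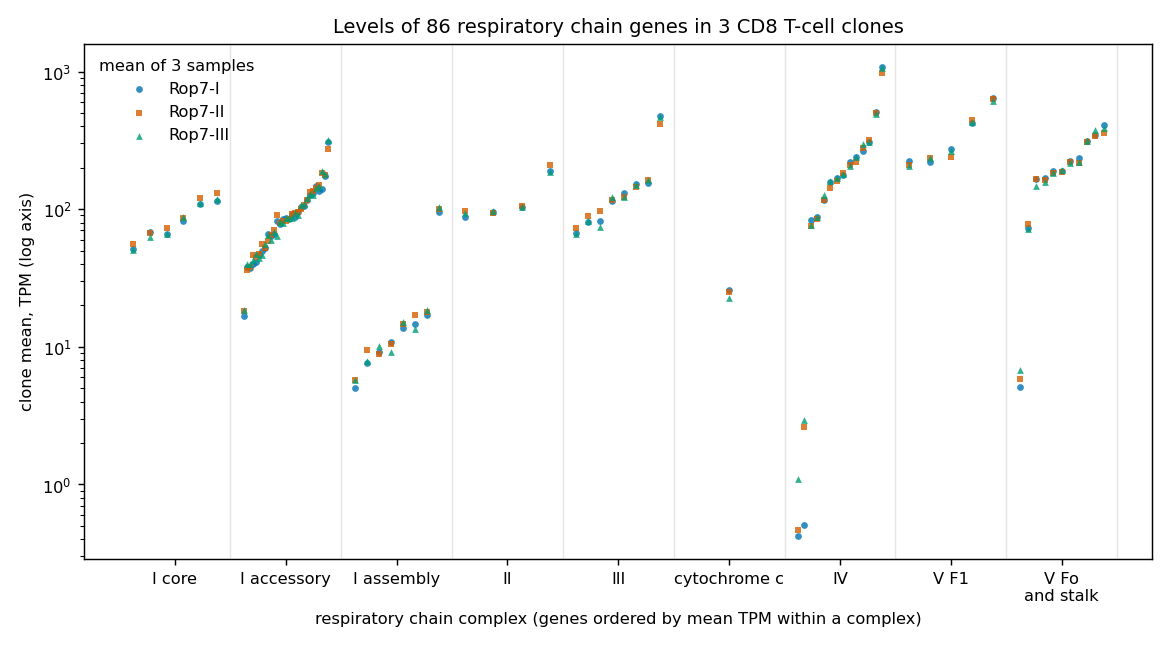
Mean TPM of each clone (3 samples) for 86 of the 87 tested genes, by complex, on a log axis. The 3 clones lie close together for nearly every gene, and Cox6b2 and Cox7a1 are the lowest points of complex IV.

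Complex I takes electrons from NADH. Its nuclear core subunits hold the flavin and the iron-sulphur clusters, and 6 of 7 had a negative log2 fold change for Rop7-III against Rop7-II, and 6 of 7 for Rop7-I against Rop7-II, although none passed the test (unadjusted p under 0.05 for 2 and for 3 of them, limma). The mean level of the 7 genes, in log2(TPM + 1), was 6.41, 6.47 and 6.41 in Rop7-I, 6.61, 6.49 and 6.52 in Rop7-II, and 6.46, 6.48 and 6.40 in Rop7-III. Every Rop7-II sample was above every sample of the other clones, by a narrow margin for replicate 2. The difference of the means was -0.095 for Rop7-III and -0.11 for Rop7-I, and without Rop7-II replicate 1, the highest of the 9, it was -0.061 and -0.075. The counts of 6 of 7 held in both pairs after a shift to a common median, after quantile normalization and without that replicate. Over all genes 45.8% had a positive log2 fold change in the former pair and 47.7% in the latter.

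Among the core subunits, Ndufs7, which carries the last iron-sulphur cluster before ubiquinone, came nearest to the threshold. It stood at 115.99, 116.88 and 110.74 TPM in the Rop7-I samples, at 139.81, 124.21 and 132.35 TPM in those of Rop7-II, and at 119.25, 118.62 and 120.24 TPM in those of Rop7-III. Rop7-II was above both other clones without overlap, and the log2 fold change of -0.20 between Rop7-I and Rop7-II had an adjusted p of 0.013 (limma). Ndufs1, the largest subunit, stood between 62.98 and 70.63 TPM in the 9 samples, and Ndufv1, which binds the flavin, between 76.85 and 90 TPM. Their 95% intervals lay within 0.3 of 0 in each pair.

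Of the 29 accessory subunits of complex I, Ndufa3 and Ndufa6 were called. Ndufa3 was at 144.92, 128.12 and 144.51 TPM in the Rop7-I samples, at 190.72, 172.26 and 190.68 TPM in those of Rop7-II, and at 194.53, 186.38 and 188.27 TPM in those of Rop7-III. Every Rop7-I sample lay below all samples of the other clones, while Rop7-II and Rop7-III overlapped. The log2 fold change was 0.45 (SE 0.056) for Rop7-III against Rop7-I, adjusted p = 0.0013 (limma), and -0.41 (SE 0.056) for Rop7-I against Rop7-II, adjusted p = 0.0015. It was the respiratory chain gene whose calls were the least dependent on the settings: the first held in 19 of 19 alternatives and the second in 18 of 19. The gene lies at chr7:3617373-3620327 (GRCm38, plus strand), its last exon overlaps the end of the opposite-strand gene Tfpt by a few bases, and without strand information reads there cannot be assigned; Tfpt itself was not called in any pair, with an adjusted p of 0.10 or more.

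Ndufa6, an accessory subunit of the matrix arm, was at 293.47, 310.73 and 314.16 TPM in the Rop7-I samples, at 276.69, 261.08 and 287.98 TPM in those of Rop7-II, and at 315.56, 312.04 and 321.11 TPM in those of Rop7-III. Rop7-II was the lowest clone, apart from both others. Rop7-III against Rop7-II gave a log2 fold change of 0.20 (SE 0.041), adjusted p = 0.0071 (limma). The call was lost without Rop7-I replicate 2 or 3, Rop7-II replicate 1 or 2, or any of the Rop7-III replicates, with adjusted p-values of up to 0.029 over all alternatives. The other 27 accessory subunits were not called in any pair. Ndufa11, a membrane subunit, was the lowest of them at 17.89 TPM.

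Ndufs5 gave the widest spread of the 87 genes within a clone, with an SD of 0.50 on the log2 scale. It was at 82.01, 79.19 and 83.76 TPM in the Rop7-I samples, at 88.19, 97.39 and 86.52 TPM in those of Rop7-II, and at 78.81, 28.14 and 83.87 TPM in those of Rop7-III. A single sample, Rop7-III replicate 2, made the difference of -0.65 between Rop7-III and Rop7-II, which was not called (adjusted p = 0.18, limma) and was -0.15 without that sample. The table lists a near copy of the gene, BC002163, of whose transcript 52.3% of the stretches of 100 bases also occur in Ndufs5. Of the longer Ndufs5 transcript, 19.8% of such stretches occur in BC002163. The part of shared reads in the levels of either gene was not tested. BC002163 was at 65.18 TPM in Rop7-III replicate 2 and at 0 to 19.18 TPM in the other 8 samples. The sum of both genes was 93.32 TPM in that sample and 83.3 to 99.46 TPM over all 9, so that the level of the pair was even where the level of each gene was not.

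**Figure D3:**
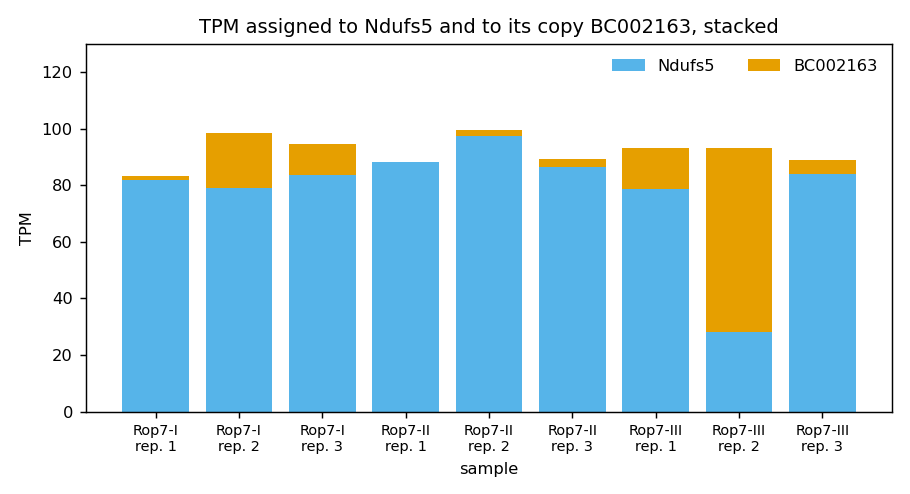
TPM assigned to Ndufs5 (blue) and to its near copy BC002163 (orange) in each of the 9 samples, stacked. In Rop7-III replicate 2, 28.14 TPM were assigned to Ndufs5 and 65.18 TPM to BC002163, and the height of the stack is like that of the other samples.

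None of the 8 complex I assembly factors was called by limma, and 2, 2 and 1 had an unadjusted p under 0.05 in the 3 pairs. They were at a mean log2(TPM + 1) of 3.90 ± 0.026 in Rop7-I, 4.00 ± 0.041 in Rop7-II and 3.95 ± 0.070 in Rop7-III (SD, n = 3), and the samples of Rop7-III overlapped those of both other clones. Every Rop7-I sample lay below every Rop7-II sample, a difference of -0.098 against a replicate SD of 0.049. Ndufaf6, the lowest, ranged from 4.18 to 6.06 TPM and Atp5sl, a factor of the distal membrane arm, from 92.35 to 107.74 TPM.

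Complex II, succinate dehydrogenase, also belongs to the tricarboxylic acid cycle. Of its 4 genes, Sdha, the flavoprotein with the active site, was called. It was at 190.07, 189.00 and 192.72 TPM in the Rop7-I samples, at 213.76, 207.06 and 201.98 TPM in those of Rop7-II, and at 188.58, 184.39 and 185.05 TPM in those of Rop7-III. Rop7-II was above both other clones, and Rop7-III lay just below Rop7-I without overlap. Rop7-III against Rop7-II gave a log2 fold change of -0.16 (SE 0.029), adjusted p = 0.0042 (limma). For Rop7-I against Rop7-II the value was -0.12, adjusted p = 0.019. The call was lost without Rop7-II replicate 1 or 2 or any of the Rop7-III replicates.

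The other genes of complex II were not called. Sdhb, the iron-sulphur subunit, was between 100.28 and 110.61 TPM and overlapped between all clones. Sdhc, a membrane anchor, was at 86.18 to 88.46 TPM in Rop7-I and at 93.83 to 98.36 TPM in Rop7-II, an interval of the log2 fold change from -0.21 to -0.057 and an adjusted p of 0.027 (limma). Sdhd, the other anchor, was between 91.09 and 99.84 TPM. The ratio of Sdha to Sdhb was 1.83 ± 0.062 in Rop7-I, 1.95 ± 0.018 in Rop7-II and 1.80 ± 0.081 in Rop7-III (SD, n = 3).

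Complex III takes electrons from ubiquinol. Between Rop7-III and Rop7-II, 2 of its 8 genes were called, in opposite directions (all genes, 12.3%). Between Rop7-III and Rop7-I 0 were called (all genes, 4.85%), and between Rop7-I and Rop7-II 1 was (all genes, 7.53%). Uqcrh, the hinge protein that binds next to cytochrome c1, was at 486.02, 457.96 and 491.57 TPM in the Rop7-I samples, at 409.28, 421.53 and 406.08 TPM in those of Rop7-II, and at 473.35, 455.35 and 467.48 TPM in those of Rop7-III. Every Rop7-II sample was below every other sample, and Rop7-I and Rop7-III overlapped. The log2 fold change was 0.21 (SE 0.033) for Rop7-I against Rop7-II, adjusted p = 0.0028 (limma), and 0.17 (SE 0.033) for Rop7-III against Rop7-II, adjusted p = 0.0054. The former call was lost without Rop7-I replicate 1 or 3 or Rop7-II replicate 3, and the latter without Rop7-II replicate 1 or 3 or any Rop7-III replicate.

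Uqcrb, a small subunit that faces the ubiquinone site, was at 81.77, 84.37 and 78.11 TPM in the Rop7-I samples, at 107.86, 96.72 and 84.05 TPM in those of Rop7-II, and at 74.12, 74.97 and 75.14 TPM in those of Rop7-III. Rop7-III was the lowest clone, and the Rop7-II samples were widely spaced, replicate 3 reaching down to the level of Rop7-I. Rop7-III against Rop7-II gave a log2 fold change of -0.35 (SE 0.076), adjusted p = 0.0091 (limma), and -0.27 without Rop7-II replicate 1. This call held in 6 of 19 alternatives and, among the samples left out in turn, only without Rop7-II replicate 3. Since the 2 genes moved apart, the ratio of Uqcrh to Uqcrb was 4.33 ± 0.52 in Rop7-II, against 5.89 ± 0.44 in Rop7-I and 6.23 ± 0.16 in Rop7-III (SD, n = 3).

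No other gene of complex III was called in any pair. Uqcrc1, a core protein, was between 152.86 and 167.82 TPM in the 9 samples. Uqcrfs1, the Rieske iron-sulphur protein, was between 111.41 and 118.9 TPM in Rop7-I and Rop7-II and between 121.55 and 123.36 TPM in Rop7-III. Rop7-III was thus above both other clones without overlap, by a log2 fold change of 0.073 and 0.10, with adjusted p-values of 0.13 and 0.071 (limma). Uqcr11, the lowest gene of the complex, was between 60.54 and 85.58 TPM, the top value being Rop7-II replicate 1. Cycs, the mobile carrier cytochrome c, was at 27.07, 26.15 and 24.64 TPM in the Rop7-I samples, at 25.37, 26.13 and 23.24 TPM in those of Rop7-II, and at 24.44, 22.59 and 21.35 TPM in those of Rop7-III, and its interval for Rop7-III against Rop7-I ran from -0.33 to -0.031 (adjusted p = 0.11).

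**Figure D4:**
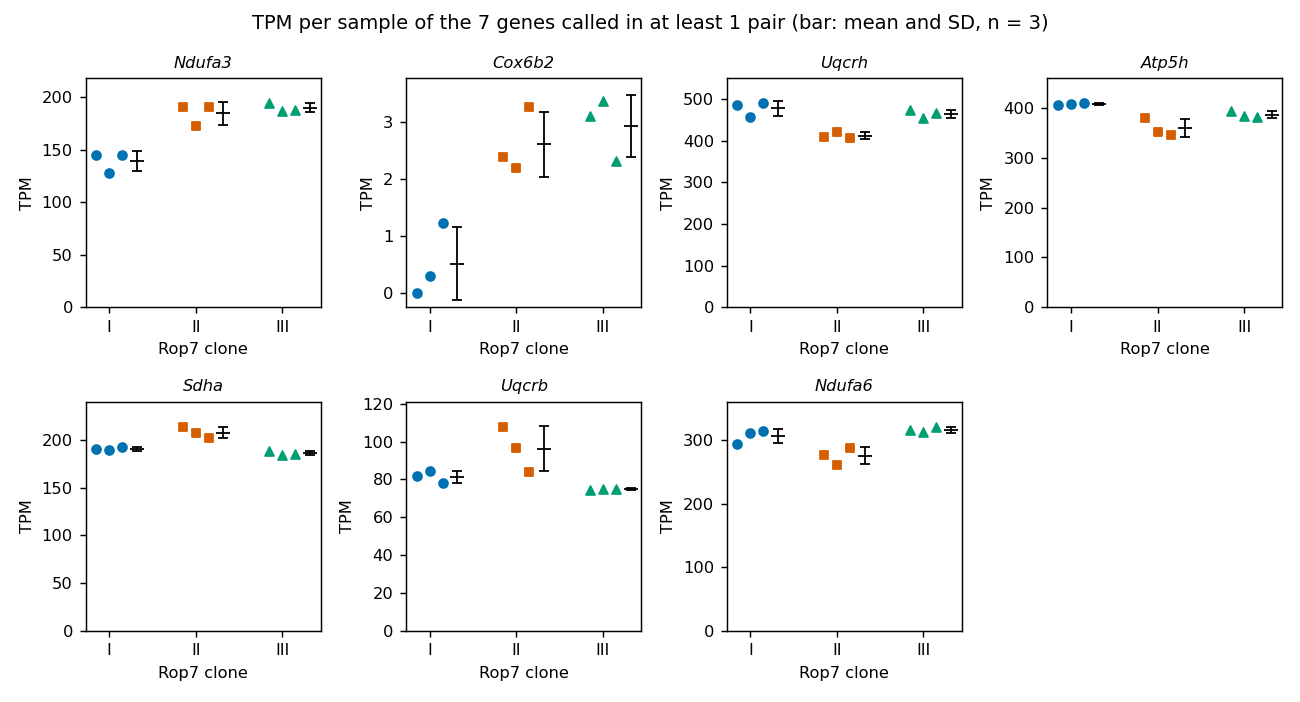
TPM per sample of the 7 respiratory chain genes called in at least 1 pair of clones, with the mean and SD of each clone (n = 3) in black; axes start at 0 except for Cox6b2, whose SD reaches below 0. Rop7-I stands apart for Ndufa3 and Cox6b2, Rop7-II for Uqcrh, Sdha and Ndufa6, and the spacing between clones is small against the level except for Cox6b2.

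Complex IV has paralogous subunits for different tissues, and the CD8 T cells listed the ubiquitous forms. Cox4i1 was between 447.91 and 517.39 TPM, while Cox4i2, its hypoxia and lung form, was listed at 0 in all 9 samples. Cox6a1 was between 295.3 and 322.31 TPM, and Cox6a2, the heart and muscle form, was at 0.22 TPM in Rop7-I replicate 2, 0.31 TPM in Rop7-III replicate 3 and 0 elsewhere. Cox8a was between 246.81 and 321.35 TPM, Cox8b, again of heart and muscle, at 0.43 TPM in Rop7-I replicate 2 alone, and Cox8c, of testis, at 0 throughout. The ubiquitous and the restricted form were thus separated in every sample, none of these values overlapping.

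The same held for the other pairs. Cox7b was between 72.41 and 87.39 TPM, and its testis form Cox7b2 was at 0.21 TPM in Rop7-III replicate 1 and 0 elsewhere. Ndufa4, now counted with complex IV, was between 200.3 and 225.34 TPM, and its hypoxia-induced relative Ndufa4l2 was listed at 0 throughout. Cox7a2 was between 78.02 and 93.83 TPM and Cox7a1, of heart and muscle, between 0 and 1.73 TPM. Cox7a2l was at 1065.69, 1064.74 and 1081.35 TPM in the Rop7-I samples, at 930.58, 976.31 and 1037.60 TPM in those of Rop7-II, and at 1101.60, 1055.01 and 1038.82 TPM in those of Rop7-III. Its ratio to Cox7a2 ranged from 10.4 to 13.3 over the 9 samples, and its lowest levels were those of Rop7-II (log2 fold change of Rop7-I against Rop7-II, 0.13; adjusted p = 0.060, limma).

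Cox6b2, the testis form of a subunit at the dimer face of complex IV, was the gene of complex IV that was called. It was at 0, 0.30 and 1.23 TPM in the Rop7-I samples, at 2.38, 2.19 and 3.26 TPM in those of Rop7-II, and at 3.11, 3.36 and 2.31 TPM in those of Rop7-III. All Rop7-I samples were below all others, at levels of at most 3.36 TPM against 210.9 to 253.12 TPM for the ubiquitous Cox6b1. The log2 fold change was 1.45 (SE 0.28) for Rop7-III against Rop7-I, adjusted p = 0.0096 (limma), and -1.33 (SE 0.28) for Rop7-I against Rop7-II, adjusted p = 0.011. The call was held in 4 of 18 alternatives and was lost without any sample but Rop7-I replicate 3; it was lost with a pseudocount of 0.1 or 0.5 TPM, and fold changes at this level depend on the pseudocount.

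The mean level of the 14 genes of complex IV was 6.71 ± 0.046 in Rop7-I, 6.77 ± 0.051 in Rop7-II and 6.86 ± 0.072 in Rop7-III (SD, n = 3). Without Cox6b2 and Cox7a1, the lowest genes, the difference went from 0.15 to 0.0057 for Rop7-III minus Rop7-I, from 0.096 to 0.057 for Rop7-III minus Rop7-II, and from -0.054 to 0.051, a change of sign, for Rop7-I minus Rop7-II. Cox4i1 and Cox5a, which adjoin the core that the mitochondrial genome encodes, were not called. Cox5a was at 126.20, 113.04 and 111.90 TPM in the Rop7-I samples, at 122.18, 110.79 and 115.12 TPM in those of Rop7-II, and at 124.26, 126.72 and 126.81 TPM in those of Rop7-III.

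**Figure D5:**
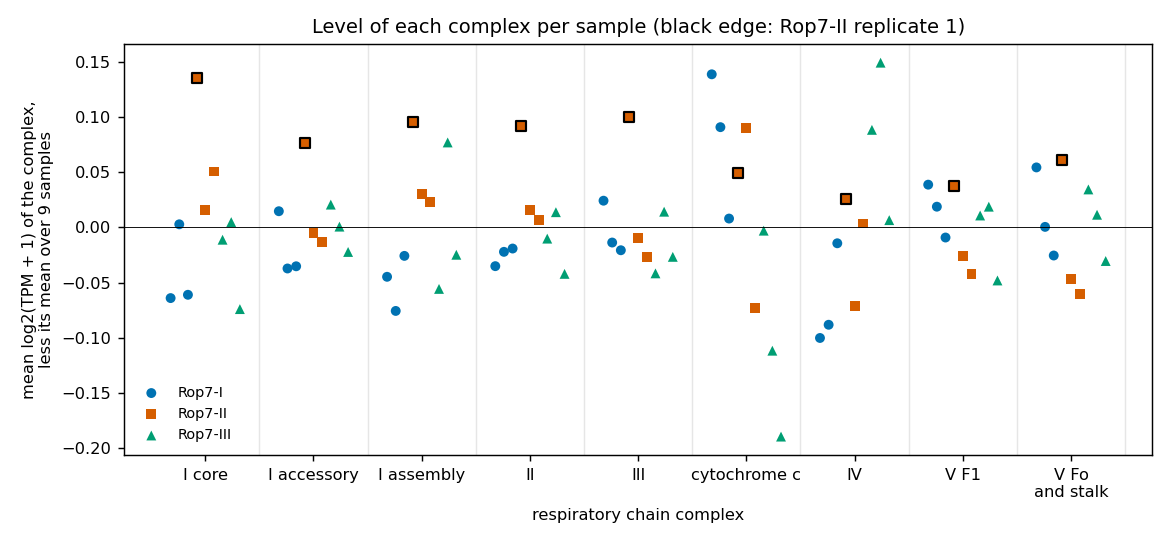
Mean log2(TPM + 1) of the tested genes of each complex in each sample, less the mean of the 9 samples; a black edge marks Rop7-II replicate 1. That sample is the highest of the 9 for every group of genes except for cytochrome c, complex IV and the F1 head.

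Rop7-II replicate 1, the sample with the B-cell and myeloid markers, held the highest level of 28 of the 87 genes (32.2%), against 20.8% over all genes tested. Without it, the pair of Rop7-III and Rop7-II gave 2 called genes, Atp5g2 and Atp5h, and 0 of the 4 called with it. The log2 fold changes of these 4 were then 0.21 for Ndufa6, -0.14 for Sdha, -0.27 for Uqcrb and 0.17 for Uqcrh, with adjusted p-values from 0.010 to 0.015 (limma). The part of the other cells in these levels was not tested. For Rop7-I against Rop7-II the same 3 genes were called with and without this sample.

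The F1 head of complex V makes the ATP, and none of its 5 genes was called by limma (1, 1 and 2 with an unadjusted p under 0.05). Atp5a1, the alpha subunit, was between 423.88 and 451.42 TPM in the 9 samples, and Atp5b between 596.15 and 660.11 TPM, and their 95% intervals lay within 0.2 of 0 in each pair. Atp5c1, the central shaft, was the lowest of the head at 212.8 TPM. The ratio of Atp5b to Atp5c1 ranged from 2.76 to 3.07 over the samples, and that of Atp5b to Atp5a1 from 1.41 to 1.53. The other 2 head genes moved apart in Rop7-I against Rop7-II: Atp5e, the epsilon subunit, had a log2 fold change of 0.20 without overlap of the samples (adjusted p = 0.044, limma), and Atp5d, the delta subunit, one of -0.10 (adjusted p = 0.12).

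In the membrane part and the stalks, Atp5h, subunit d of the outer stalk, was called. It was at 407.10, 408.92 and 410.74 TPM in the Rop7-I samples, at 380.21, 352.15 and 346.30 TPM in those of Rop7-II, and at 395.16, 383.70 and 382.05 TPM in those of Rop7-III. The clones were apart from each other in the order Rop7-I, Rop7-III, Rop7-II. The log2 fold change of Rop7-I against Rop7-II was 0.19 (SE 0.036), adjusted p = 0.0080 (limma); that of Rop7-III against Rop7-II was 0.11, adjusted p = 0.058. The former call held in 6 of 19 alternatives and, among samples left out, only without Rop7-II replicate 1. Of the transcript of Atp5h, 29.5% of the stretches of 100 bases occur also in the pseudogene Gm10250, which is not analysed here.

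The 3 genes Atp5g1, Atp5g2 and Atp5g3 encode the same mature subunit c, which forms the rotating ring. Atp5g2 was at 338.13, 353.54 and 341.06 TPM in the Rop7-I samples, at 350.71, 334.31 and 335.01 TPM in those of Rop7-II, and at 366.58, 379.99 and 372.11 TPM in those of Rop7-III. Rop7-III was above both other clones without overlap, by a log2 fold change of 0.13 against Rop7-II (adjusted p = 0.013, limma) and 0.12 against Rop7-I (adjusted p = 0.039). Atp5g1 was between 69.31 and 84.02 TPM and Atp5g3 between 287.23 and 334.54 TPM, and neither was called. The ratio of Atp5g2 to Atp5g1 was 4.73 ± 0.17 in Rop7-I, 4.34 ± 0.16 in Rop7-II and 5.23 ± 0.17 in Rop7-III, while the sum of the 3 genes was 731 ± 24.2, 724 ± 36.9 and 755 ± 6.86 TPM (SD, n = 3). Atp5s, coupling factor B, was the lowest gene of this part at 4.45 to 7.44 TPM, and its log2 fold change of 0.36 for Rop7-III against Rop7-I had an adjusted p of 0.055.

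The genes lie on 19 chromosomes. Ndufa3 and Cox6b2 (chr7:4751792-4753094, minus strand), the 2 genes that were lower in Rop7-I, are 1.13 Mb apart. In the stretch from 1 Mb before the former to 1 Mb after the latter, 43 genes were tested: these 2 were the genes called between Rop7-III and Rop7-I (all genes, 4.85%), and 4 were called between Rop7-I and Rop7-II (all genes, 7.53%), 3 of them lower in Rop7-I. The stretch was drawn around the 2 called genes, and its counts are a description. Uqcrb (chr13:66900617-66905378, minus strand) had 30 tested genes within 1 Mb, of which 8 were called between Rop7-III and Rop7-II, where 12.3% of all genes were called. Atp5h (chr11:115415689-115419962, minus strand) had 53, of which 7 were called between Rop7-I and Rop7-II (all genes, 7.53%). Sdha (chr13:74322254-74350280, minus strand) had 22 and Ndufa6 (chr15:82350140-82354322, minus strand) 35, of which 5 and 6 were called between Rop7-III and Rop7-II. Uqcrh (chr4:116066965-116075071, minus strand) had 28, of which 2 were called in that pair, all to be read against the same 12.3%. Between Rop7-I and Rop7-II, where Uqcrh was called as well, 0 of the 28 were called (all genes, 7.53%). These neighbour counts leave out the respiratory chain gene itself.

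Promoters of respiratory chain genes are known for sites of NRF1, of ETS factors such as NRF2 and of YY1. RefSeq windows of 300 bases around the start of a gene (GRCm38.p6, 250 before it and 50 from it on) were given for 77 of the 93 genes. A gene was counted as a match if any of its windows matched on either strand. The letters of NRF1 (GCGCA and GCGC with any 1 base between them) occurred in 24.7% of the 77 genes. They occurred in 5.19% of all 27025 genes with a window and in 11.8% of the tested genes among them. The YY1 letters AAGATGGCG occurred in 10.4%, against 1.64% and 3.73%. The ETS letters CCGGAAGT occurred in 6.49%, against 4.31% and 9.52%, and the Sp1 letters GGGCGG in 45.5%, against 38.2% and 67.2%. None of these motifs holds the letters of another, and a match is a description of the letters, not a site. The stretches before the start are shown for called genes that differ in their matches, with matches to NRF1 or ETS letters in capitals: Sdha with 3 NRF1 matches 98, 55 and 10 bases before the start, Atp5h with an NRF1 match at 141 and an ETS match at 39, Uqcrh with an ETS match at 11, and Ndufa3 with none of NRF1, ETS or YY1. Bases that GENCODE assigns to a transcript of the gene are left out, which removes the match of Sdha at 10 and that of Atp5h at 39. The stretches, given 5′ to 3′ on the strand of the gene, are chr13:74350281-74350490 (minus), chr11:115419963-115420169 (minus), chr4:116075072-116075320 (minus) and chr7:3617123-3617372 (plus).
Sdha: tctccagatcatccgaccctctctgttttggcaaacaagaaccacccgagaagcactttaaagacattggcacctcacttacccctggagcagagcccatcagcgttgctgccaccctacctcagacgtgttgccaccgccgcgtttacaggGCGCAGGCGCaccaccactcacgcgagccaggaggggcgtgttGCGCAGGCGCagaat
Atp5h: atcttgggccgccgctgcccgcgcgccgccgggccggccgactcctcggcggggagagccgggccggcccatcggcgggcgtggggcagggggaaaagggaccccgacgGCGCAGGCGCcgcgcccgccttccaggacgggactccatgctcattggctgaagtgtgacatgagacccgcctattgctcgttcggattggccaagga
Uqcrh: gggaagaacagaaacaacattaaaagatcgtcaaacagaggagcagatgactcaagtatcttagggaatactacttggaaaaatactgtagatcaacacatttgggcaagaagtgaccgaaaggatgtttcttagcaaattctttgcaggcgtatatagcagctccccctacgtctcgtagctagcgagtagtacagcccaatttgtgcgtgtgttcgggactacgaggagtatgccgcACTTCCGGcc
Ndufa3: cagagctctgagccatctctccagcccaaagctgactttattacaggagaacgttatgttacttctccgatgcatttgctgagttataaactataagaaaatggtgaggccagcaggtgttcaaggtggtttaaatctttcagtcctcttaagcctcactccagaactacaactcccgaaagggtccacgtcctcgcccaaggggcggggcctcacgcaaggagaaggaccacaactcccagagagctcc

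Genes of the same machinery that the symbol rule does not take are read against the 12.3%, 4.85% and 7.53% of all genes called between Rop7-III and Rop7-II, Rop7-III and Rop7-I, and Rop7-I and Rop7-II. Of 4 further genes (Cyc1, Usmg5, 2010107E04Rik and Atpif1), 0 were called in any pair by limma, with 1, 2 and 1 at an unadjusted p under 0.05. Of 40 assembly factors, 1, 1 and 2 were called in the same order of pairs. Cox18, which inserts a complex IV subunit into the membrane, had a mean of 20.5 ± 0.66 TPM in Rop7-I, 27.8 ± 2.6 TPM in the Rop7-II samples and 28.4 ± 1.7 TPM in those of Rop7-III (SD, n = 3), lower in Rop7-I in both of its pairs (adjusted p = 0.0049 and 0.0050). Cox14, a complex IV assembly factor, fell by 0.26 on the log2 scale for Rop7-I against Rop7-II, and Acad9, a complex I assembly factor, rose by 0.17 for Rop7-III against Rop7-II. None of 13 genes of the tricarboxylic acid cycle was called in any pair by limma (3, 4 and 4 with an unadjusted p under 0.05), and none of 11 of ubiquinone synthesis (2, 2 and 3).

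Among 17 genes of mitochondrial transcription, replication and biogenesis, 3 were called between Rop7-III and Rop7-II (all genes, 12.3%), 0 between Rop7-III and Rop7-I (all genes, 4.85%; 6 of the 17 with an unadjusted p under 0.05), and 1 between Rop7-I and Rop7-II (all genes, 7.53%). Polg, the mitochondrial DNA polymerase, had a mean of 73.3 ± 0.37 TPM in Rop7-III, against 67.2 ± 1.2 TPM in Rop7-I and 60.8 ± 1.6 TPM in the Rop7-II samples (SD, n = 3), a log2 fold change of 0.27 for Rop7-III against Rop7-II (adjusted p = 5.2e-04, limma). Peo1, the mitochondrial DNA helicase, went the other way by -0.35 and Nrf1, the factor of the promoter motif, by -0.23. The mean of Nrf1 was 61.2 ± 1.8 TPM for Rop7-II and 52.1 ± 0.95 TPM for Rop7-III (SD, n = 3). Ppargc1b, a coactivator of mitochondrial biogenesis, rose by 0.38 for Rop7-I against Rop7-II. Of 77 mitochondrial ribosomal protein genes, 4 were called between Rop7-III and Rop7-II (1 higher and 3 lower; all genes, 6.39% and 5.89%), 2 between Rop7-III and Rop7-I (both lower; all genes, 2.28%) and 2 between Rop7-I and Rop7-II (both higher; all genes, 3.67%). Mrpl45 was lowest in Rop7-III, at 10.7 ± 0.31 TPM, while Rop7-I held 14.3 ± 0.76 TPM and Rop7-II 15.2 ± 1.0 TPM (SD, n = 3).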

How the data were processed

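RNA-seq of 9 samples, 3 of each clone, was analysed from the deposited table. The authors aligned single-end reads with RSEM 1.2.11 to mouse RefSeq genes (mm10). The deposited TPM values share a common total (1000000 to 1000001 per sample). The submitters' processing notes also name DESeq2 1.8.1, which needs counts and does not apply to TPM. The study's methods give a typical number of reads per sample, but the reads behind each TPM value are unknown, so no counting interval is given. Between 11056 and 11494 genes per sample were above 1 TPM, and 7126 of 24060 were at 0 in all.

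As in the study's methods, only genes that exceeded 1 TPM in at least 1 sample entered the tests, 12115 in all. Values were taken as log2(TPM + 1), which understates the change of low genes, and the 3 pairs of clones were compared in R 4.3.3 by limma (version 3.58.1) in a single fit of the 9 samples, the spread following a trend on the mean. All p-values were two-sided, and Benjamini-Hochberg adjustment was made within each pair, with 0.01 as the threshold for a call. The same threshold was used for the F test over 3 clones. Genes at like levels were those between the 10th and 90th percentile of the respiratory chain genes in mean level. They were matched in range only, and their median level was lower. On simulated data for Rop7-III against Rop7-II with 12115 genes, 36%, 82%, 98% and 100% of 50 genes each were recovered at log2 changes of 0.3, 0.5, 1 and 2. The changed genes were drawn from those at higher levels, and all others were left unchanged. Recovery in the real data, where many more genes were called, can therefore differ.

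The values of 1 tested gene are not reported here singly; it stays in the counts and group means. Positions are from GENCODE M21 (GRCm38), found for 93 of 93 genes, and promoter windows from RefSeq (GRCm38.p6). Stretches of 100 bases shared between transcripts were counted in the GENCODE transcripts. The genes and lists were chosen with earlier results of these data known. Named were every called gene, a set of core subunits, the paralogue groups, and the highest and lowest gene of each complex. The called genes of related lists were named too. Ndufs5, BC002163, Ndufs7, Sdhd, Atp5d, Atp5e, Tfpt and the ratios between genes were added after their values were seen. Alternatives were other pseudocounts, filters, scalings and thresholds, no trend, sample weights, fits of only 2 clones, a replicate block and leaving out each sample; 2 were added after the data were seen, complex IV without Cox6b2 and Cox7a1 and the sum of Ndufs5 and BC002163.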

Additional observations from a re-analysis of the deposited data

How the results depend on the processing

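The log2 fold changes of the called genes kept their direction under every alternative run, while calls near the threshold were lost under some. Called respiratory chain genes were 4 between Rop7-III and Rop7-II, 2 between Rop7-III and Rop7-I and 3 between Rop7-I and Rop7-II, and 4 by the F test. In that order, they were 0, 1, 1 and 1 with no trend of the spread, 1, 1 and 0 in fits of only the 2 clones, 7, 4, 9 and 11 at an adjusted p under 0.05, and 0, 1, 0 and 1 with at least a 2-fold difference. With no filter the first pair gave 2 and the second 1; the second pair also gave 1 with a pseudocount of 0.1 or 0.5 TPM and when every sample had to reach 1 TPM. Leaving out 1 sample at a time gave 0 to 3, 1 to 2, 1 to 3 and 1 to 4. The first pair gave 0 without any of the Rop7-III samples, 1 without Rop7-II replicate 2, and 2 without Rop7-I replicate 2 or 3 or Rop7-II replicate 1. The second gave 2 only without Rop7-I replicate 3, and the third gave 1 only without Rop7-I replicate 1; the F test gave 1 without Rop7-I replicate 1 and 2 without Rop7-I replicate 2 or any Rop7-III sample. With replicate number as a block, the counts were 2, 1, 2 and 2; samples that share a number did not vary together (correlation of their deviations from the clone means, -0.39 to 0.11), so that the numbers do not pair them. The mean level of complex IV depended on its low genes: with a pseudocount of 0.1 TPM the differences were 0.17 (Rop7-III minus Rop7-II), 0.33 (Rop7-III minus Rop7-I) and -0.16 (Rop7-I minus Rop7-II), and without Cox6b2 and Cox7a1 they were 0.057, 0.0057 and 0.051, the last with its sign changed. The causes of these changes were not tested. With 3 samples a clone and no counts, small differences can be missed: in the simulated data only 36% of log2 changes of 0.3 were recovered.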
